A study of Mus musculus with 30 samples.

Results

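Cortical gene expression of COX-2-/- mice was set against that of wild-type mice, on 6 of the 30 arrays of the series. The arrays were chosen by their labels: 3 of COX-2-/- and 3 of wild-type cortex, both from the COX-2 colony, each read at 16896 probes of a custom nylon membrane printed with mouse cDNAs. Null mice lacked a working copy of Ptgs2, the gene of cyclooxygenase 2, in every cell. Both groups were 12 weeks old, untreated, and on a mixed C57BL6/6-129/Ola background. Null mice came from null males mated with heterozygous females, and wild-type mice from matings of wild-type parents, so that genotype, litter and parental genotype cannot be told apart. The methods name 3 mice a group and also arrays in triplicate for each sample, and the labels do not say whether the 3 arrays of a group came from 3 animals, so p-values measure the spread between arrays, which may be technical. With 3 arrays against 3, an exact permutation test of 1 probe cannot go below p = 0.1. For comparison use was made of 3 cortex arrays of COX-2+/- mice, which carry 1 null allele and which also enter the limma fit of cortex, and on the hippocampus of the line, 3 arrays each of COX-2-/-, COX-2+/- and wild-type mice. In such bulk tissue, fewer cells of a type and less RNA per cell cannot be told apart.

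Cyclooxygenases turn arachidonic acid, set free from membrane lipid by phospholipase A2, into prostaglandin H2, from which separate synthases make prostaglandins and thromboxane. In forebrain COX-2 is found mainly in glutamatergic neurons and is induced by synaptic activity, and its prostaglandin E2 acts through receptors of which EP2 and EP4 raise cAMP. The comparison asked which genes of the cortex differ in level once this isoform is missing.

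The values are Z scores, the natural log intensity of a probe expressed in SDs from the mean of its array, so 0 is an average signal and levels are not absolute. The z ratio of a probe is the mean Z of COX-2-/- arrays minus the mean Z of wild-type arrays, divided by the SD of that difference over all probes, 0.101. The methods word this divisor as the SD of all genes of an array, and with the difference left undivided 0 probes met the rule; the form divided by the SD of the differences is used here. A probe met the rule where its z ratio lay beyond 1.5 in either direction, its Z test passed at 0.05 and its mean Z over the 6 arrays was above 0. That left 8003 probes to be tested, 4521 of them with 1 gene symbol. No probe carried the symbol Ptgs2 or Ptgs1 in the annotation used here, so the deleted gene was not read out. Over all probes, arrays correlated at r = 0.989 to 0.992 among the COX-2-/- group and 0.987 to 0.992 among the wild-type group, and at 0.984 to 0.991 between the groups.

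Before any gene is named, a pattern in the order of the table has to be given, because where a probe stood in it moved with the direction of its difference. The KO minus wild-type difference swung up and down along the table with a period of 528 rows, 32 blocks in all. The deposited table falls into a first and a second part of equal length, each scaled on its own. Rows 528 apart in the first part had differences that correlated at r = 0.414, against -0.195 for rows 264 apart, and of all the lags between 200 and 899 rows 528 gave the largest r. The second part had the same period, with r = 0.159. Of the 215 probes that were higher, 165 (76.7%) lay in the first 132 rows of a block, which held 25.1% of the tested probes, and 113 lay in its first 33 rows, where 25.2% of the 449 tested probes met the rule as higher. Of the 131 that were lower, 84 (64.1%) lay in its last 132 rows, which held 22.0% of the tested probes. In the hippocampus of the same line the swing ran the other way: 150 lower and 3 higher probes lay in the first 132 rows, 1 lower and 142 higher in the last 132. Whether the row order follows the spotting of the membrane is not given in the sources used here, and what sets the swing was not tested. Genes below are therefore also given, where they met the rule, with their z ratio after each array was corrected for its median deviation at that place in the block, called the place-corrected z ratio, a step added after the values were seen. The divisor of the place-corrected z ratio was the SD of the corrected differences, 0.0883 against 0.101 before correction. That z ratio can therefore rise where the difference in Z does not.

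**Figure D1:**
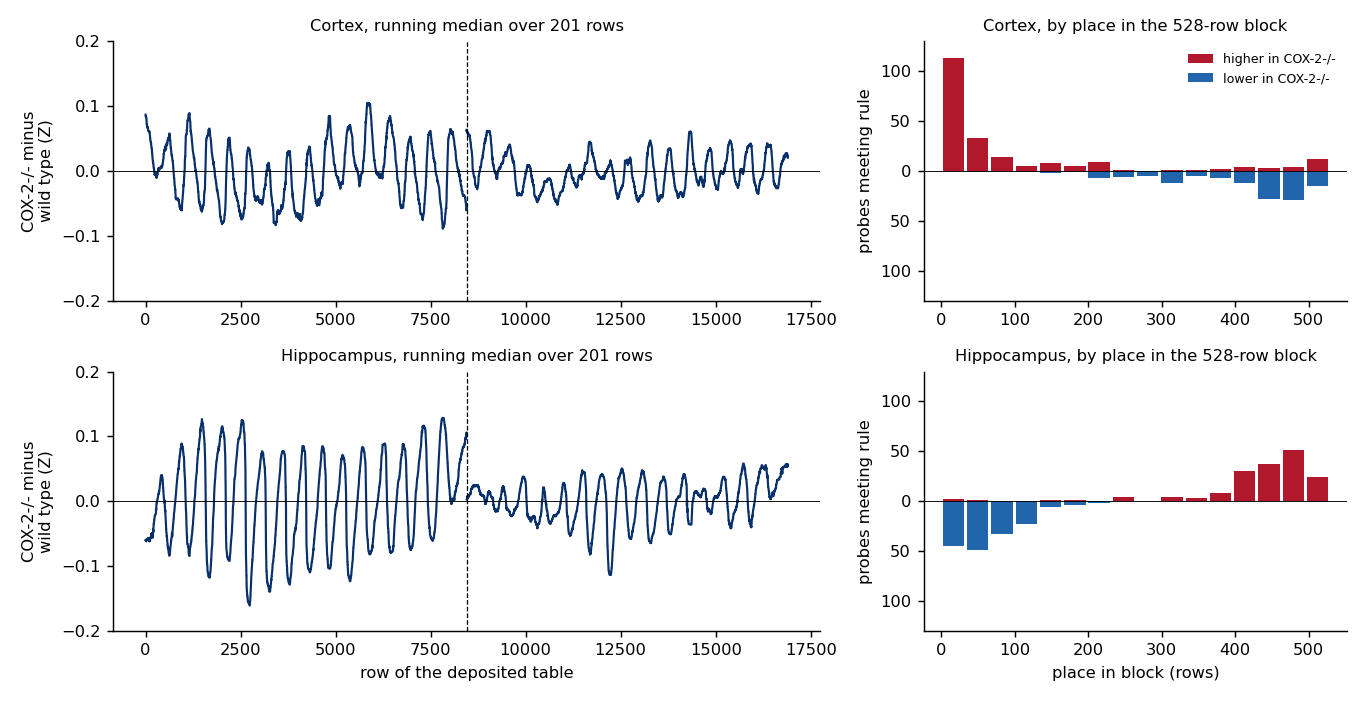
Left, running median of the Z difference over the wider window, COX-2-/- minus wild type, along the table in cortex (top) and hippocampus (bottom); the dashed line divides the first and second part. Right, number of probes that met the rule in each 33 rows of the 528-row block, summed over 32 blocks, with those higher in COX-2-/- above 0 and those lower below 0: higher probes gather at the start of the block in cortex and at its end in hippocampus.

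The study reports a smaller count for this comparison, given as genes. Under its rule as applied here 346 of 8003 probes differed, 4.32% of those tested. Of these 215 were higher in COX-2-/- cortex (2.69%) and 131 lower (1.64%), and 174 carried 1 symbol, each of a different gene (124 higher, 50 lower). The differences were small: those that met the rule ran between 0.152 and 0.386 Z where higher (median 0.184) and between 0.152 and 0.298 Z where lower (median -0.176). In 294 of the 346 (85.0%) no COX-2-/- array overlapped a wild-type array, against 17.6% of all tested probes. The rule chose these probes by their differences and spread on the same arrays. This contrast and their limma p-values below are therefore no separate support. The first part of the table held 258 of the 346 (6.63% of 3890 tested) and the second part 88 (2.14% of 4113). In limma, fitted over the 9 cortex arrays of the line with the heterozygous arrays sharing the spread, 0 probes (0%) passed an adjusted p of 0.05, the smallest adjusted p was 0.108, and 1066 probes (13.3%) had an unadjusted p under 0.05, 341 of the 346 among them. After correction for place in the block 193 probes met the rule, 109 of them (31.5% of the 346) also called without it and in the same direction. Of the 346, 63 (18.2%) met the rule the same way under all 3 corrections for row order that were run, by place in the block and by running medians over a wide window and over 21 rows. The running medians were taken from the difference alone, so under them the Z test was that of the uncorrected values.

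Crybg3, a gene of the crystallin beta-gamma family, had the highest z ratio. Its Z was 1.54, 1.77 and 1.51 on the COX-2-/- arrays and 1.27, 1.33 and 1.06 on the wild-type arrays. No array overlapped the other group, and the difference of 0.386 ± 0.0811 (limma SE) gave a z ratio of 3.81 with a limma adjusted p of 0.108. Its place-corrected z ratio was 4.69, higher than before correction, and it met the rule under all 3 corrections. A second probe for Crybg3 had a z ratio of 0.0940.

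Ctnnd1 encodes p120 catenin, which holds cadherins at the cell surface. It had Z scores of 0.765, 0.836 and 0.783 in COX-2-/- cortex and 0.562, 0.534 and 0.333 in wild-type cortex, apart on every array, with a difference of 0.319 ± 0.0617, a z ratio of 3.15 and a limma adjusted p of 0.108. The place-corrected z ratio was 1.76 and that over 21 rows 1.11, which no longer passed. Its row, 3702, lay at the start of a block beside those of Lama5 (row 3697, z ratio 2.54, place-corrected 1.09), Trabd (row 3703, 2.46, 0.984), Psmc3 (row 3725) and Paxip1 (row 3728). All of these genes met the rule as higher. Ctnnd1 was also read by 2 other probes, with z ratios of -0.972 and -0.735.

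Mat2b, the regulatory subunit of the methionine adenosyltransferase that makes S-adenosylmethionine, differed with little spread in either group. Its Z was 0.289, 0.316 and 0.234 on COX-2-/- arrays and 0.0198, -0.0545 and 0.0249 on wild-type arrays. All COX-2-/- arrays lay above all wild-type arrays; the difference was 0.283 ± 0.0619, the z ratio 2.79 and the limma adjusted p 0.111. The gene was among the 18 of 72 named probes that met the rule under all 3 corrections, with a place-corrected z ratio of 2.96. A second Mat2b probe, with mean Z of -0.611 ± 0.16 in COX-2-/- and -0.672 ± 0.089 in wild-type cortex (SD, n = 3 each), was below the filter and had a z ratio of 0.596.

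Rpsa, the laminin receptor protein of the small ribosomal subunit, and Nagk, the kinase that salvages N-acetylglucosamine, lay in the last 132 rows of a block, where 23 higher and 84 lower probes were found. Rpsa was read at 1.37, 1.42 and 1.27 in COX-2-/- and 1.18, 1.08 and 0.986 in wild-type cortex, without overlap, with a z ratio of 2.67 and 3.68 after correction for place. Its 5 other probes had z ratios of 0.137 to 1.04. Nagk was read at 0.921, 0.904 and 0.912 in COX-2-/- and 0.732, 0.731 and 0.459 in wild-type cortex, where 1 wild-type array lay below the other 2, and its z ratio was 2.69, or 3.06 with place corrected.

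Of the remaining genes with 1 symbol among the 12 highest, Bpnt2, a phosphatase of the Golgi that acts in sulfation, met the rule under all 3 corrections (z ratio 2.94, place-corrected 1.54). Hspd1, the mitochondrial chaperonin Hsp60, was at 1.01, 1.13 and 1.07 in COX-2-/- and 0.90, 0.866 and 0.578 in wild-type cortex. Its groups did not overlap, but its z ratio of 2.87 came to 1.45 once place was corrected. Cdca8, the borealin subunit of the chromosomal passenger complex, had 2.79 and 1.36 place-corrected. Paxip1, a BRCT protein of the DNA damage response, had 2.76 and 1.82, the second with a Z test that no longer passed. Ppil2, a cyclophilin with a U-box, had the smallest unadjusted limma p among genes with 1 symbol: it was at 1.10, 1.08 and 1.12 in COX-2-/- and 0.838, 0.883 and 0.760 in wild-type cortex. Its z ratio was 2.71, the limma adjusted p 0.108 and the place-corrected z ratio 1.26. Nhp2, of the H/ACA ribonucleoproteins, had 2.61 and 1.16, and Skp1, the adaptor of SCF ubiquitin ligases, 2.56 and 1.09. Nhp2 stood in the row after Hspd1, whose 2 other probes had z ratios of 0.910 and -0.748.

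**Figure D2:**
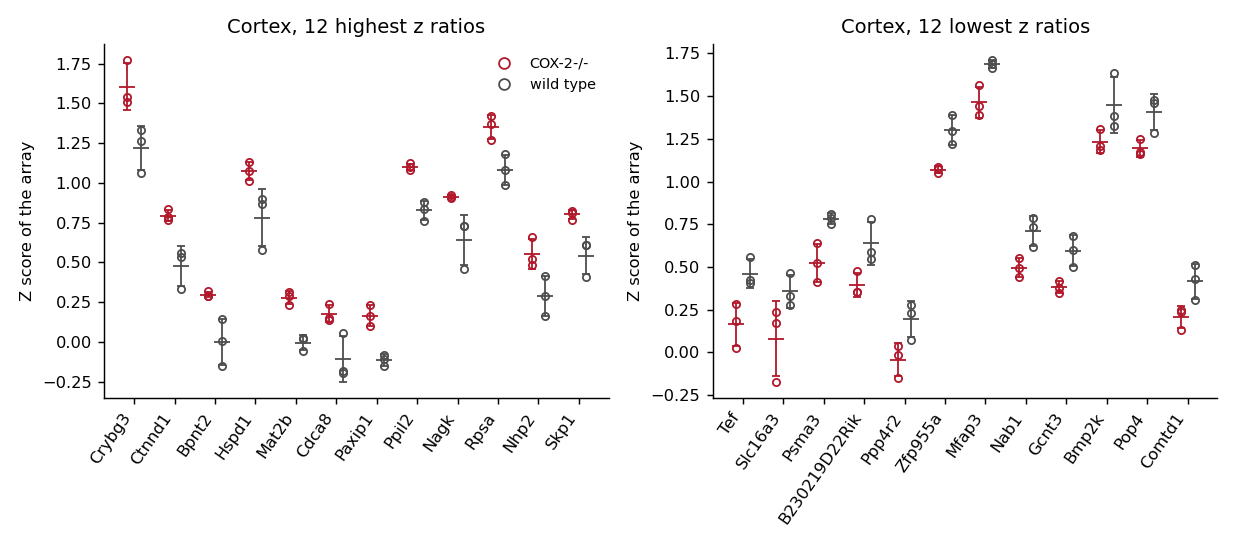
Z score of each array (circles), with mean and SD (bars, n = 3), for the genes with the 12 highest (left) and 12 lowest (right) z ratios among probes that met the rule without overlap; COX-2-/- in red to the left of wild type in grey. The 2 groups are apart for every gene, by 0.386 Z at most between means.

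Tef had the lowest z ratio of the genes that were lower. It encodes a PAR bZIP transcription factor of the circadian output loop. Its Z was 0.184, 0.0266 and 0.280 in COX-2-/- cortex and 0.424, 0.404 and 0.557 in wild-type cortex, with every COX-2-/- array below every wild-type array. The difference was -0.298 ± 0.0738, the z ratio -2.94 and the limma adjusted p 0.123, and Tef met the rule under all 3 corrections, with a place-corrected z ratio of -2.42. Of the 10 circadian genes measured, 3 were tested and Tef alone met the rule. That was 1 of 3 tested probes (33.3%), against 4.32% of all tested.

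Psma3, an alpha subunit of the 20S proteasome, was at 0.637, 0.521 and 0.413 in COX-2-/- and 0.749, 0.788 and 0.812 in wild-type cortex, without overlap. Its z ratio was -2.56 (difference -0.259 ± 0.0624, limma adjusted p 0.123), or -2.09 with place corrected, and it also met the rule under all 3 corrections. The 2 other Psma3 probes had z ratios of 0.20 and 0.225, with the opposite sign. Slc16a3, the monocarboxylate transporter MCT4 that exports lactate from glycolytic cells, varied widely among COX-2-/- arrays. Its Z was 0.238, -0.172 and 0.172 on those arrays and 0.278, 0.328 and 0.465 on wild-type arrays, and its z ratio of -2.74 came to -2.35 after correction for place, where the Z test no longer passed. Nab1, which represses the early growth response factors, was at 0.554, 0.441 and 0.494 in COX-2-/- and 0.735, 0.615 and 0.788 in wild-type cortex. It had a z ratio of -2.14 and, place-corrected, -1.57; over 21 rows it was -1.12 and did not pass. Its row follows that of Zfp955a, a zinc finger gene with a z ratio of -2.30, or -1.72 with place corrected. A second Nab1 probe, below the filter, had a z ratio of -0.121.

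Bmp2k, a kinase of clathrin-coated vesicles, had a z ratio of -2.11, and Pop4, a subunit of the RNases P and MRP, -2.11. Ppp4r2, a regulatory subunit of protein phosphatase 4, was at -0.149, 0.0369 and -0.0175 in COX-2-/- and 0.229, 0.275 and 0.0741 in wild-type cortex, for a z ratio of -2.33. Gcnt3, a mucin-type glycosyltransferase, had -2.12, Mfap3, a protein of elastin-associated microfibrils, -2.2, Comtd1 -2.08 and B230219D22Rik -2.42. Pop4, Ppp4r2, Gcnt3, Mfap3, Comtd1 and B230219D22Rik met the rule under all 3 corrections, with place-corrected z ratios of -1.88, -2.03, -1.77, -2.03, -1.89 and -2.47, and that of Bmp2k was -1.77. Bmp2k and Slc16a3 failed the Z test with place corrected. They passed under both running medians, where the Z test was that of the uncorrected values. The 2 other probes of Ppp4r2 had z ratios of -1.17 and 0.645. The 1 other probe of Mfap3 had -0.149, that of B230219D22Rik -0.239 and that of Bmp2k 0.0442.

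Enzymes that make and use acetyl-CoA were read by 26 measured genes of a list of 40, and 18 genes were tested. Acat1, Hsd17b10, Acly and Hmgcs1 met the rule as higher and none as lower. The median difference of the 19 tested probes was 0.0253 Z, with 11 above 0, against -0.00830 Z over all tested probes, and 21.1% of them met the rule, against 4.32%. The list holds Acat1, Hsd17b10 and Acly, which the study had picked from these arrays, so that share is no separate support. Of the genes that met the rule, Acat1 alone still did with place corrected. Acat1, which joins and splits acetoacetyl-CoA in mitochondria, was at 0.234, 0.232 and 0.179 in COX-2-/- and 0.0184, 0.0471 and 0.0256 in wild-type cortex. The groups lay apart with little spread; the difference was 0.185 ± 0.0517 and the z ratio 1.83 (limma adjusted p 0.177), or 2.0 with place corrected, and Acat1 passed under all 3 corrections.

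Hsd17b10, the mitochondrial short chain hydroxyacyl-CoA dehydrogenase, was at 1.30, 1.30 and 1.23 in COX-2-/- and 1.07, 1.15 and 1.13 in wild-type cortex, without overlap. The difference of 0.162 ± 0.0434 gave a z ratio of 1.60, a limma adjusted p of 0.175 and a place-corrected z ratio of 1.18; it passed under none of the 3 corrections. It stood 2 rows after Rpl23a in a stretch of 50 rows with 25 tested probes, 11 of which met the rule, all as higher. Acly, which splits cytosolic citrate into acetyl-CoA for lipid synthesis, was at 0.462, 0.432 and 0.462 in COX-2-/- and 0.360, 0.30 and 0.196 in wild-type cortex. Again no array overlapped, with a z ratio of 1.65 that came to 0.398 with place corrected. Hmgcs1, the cytosolic HMG-CoA synthase of cholesterol synthesis, was at 0.201, 0.214 and 0.294 in COX-2-/- and 0.0913, 0.0627 and -0.0151 in wild-type cortex, for a z ratio of 1.88, or 0.892 place-corrected. The other Hmgcs1 probe, brighter at a mean Z of 3.23 in COX-2-/- and 3.19 in wild-type cortex, had a z ratio of 0.443. Other enzymes of fatty acid oxidation stayed inside the threshold, Acads at -1.07, Eci1 at -0.681, Cpt2 at 0.609 and Etfa at 0.850. The study also reports Hsd17b10, Acat1 and Acly as higher in COX-2-/- cortex by quantitative PCR, which was not part of these data.

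In the methionine cycle 16 of 24 listed genes were measured and 9 tested, and Mat2b alone met the rule. That was 1 of 9 tested probes (11.1%), against 4.32% of all tested, and the study had picked Mat2b from these arrays. Ahcy, which hydrolyses S-adenosylhomocysteine, was read by 1 probe under that symbol, at -0.417, -0.392 and -0.497 in COX-2-/- and -0.498, -0.535 and -0.278 in wild-type cortex, with a z ratio of 0.0208, and its level lay below the filter. The study reports Ahcy as higher in COX-2-/- cortex, on its arrays and by quantitative PCR. Mat1a had a z ratio of 1.04 and the tested Cbs probe, of the enzyme that leads homocysteine into transsulfuration, 0.954. A second Cbs probe and a probe of Shmt1, both below the filter, had z ratios of 2.23 and 2.48, and the tested Shmt1 probe -0.0912. Of GABA genes 5 were measured and 2 tested, and 1 of the 2 tested probes met the rule (50%). Slc6a13, a GABA transporter of meninges and liver, was at 2.09, 2.12 and 2.15 in COX-2-/- and 2.02, 1.91 and 1.92 in wild-type cortex. Its arrays did not overlap, the difference was 0.170 ± 0.0459 and the z ratio 1.68 (limma adjusted p 0.175), and with place corrected the z ratio was 0.819. It lay within 22 rows of Ndufb10, Immt and Usp25, which met the rule as higher too and had place-corrected z ratios of 1.42, 1.79 and 1.41. Immt, the mitofilin that shapes mitochondrial cristae, was at 2.2, 2.30 and 2.30 in COX-2-/- and 2.10, 1.96 and 2.08 in wild-type cortex, with a z ratio of 2.16. Of these Immt alone still passed with place corrected, and none did over 21 rows. By quantitative PCR the study also reports Mat2b and Slc6a13 as higher in COX-2-/- cortex.

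**Figure D3:**
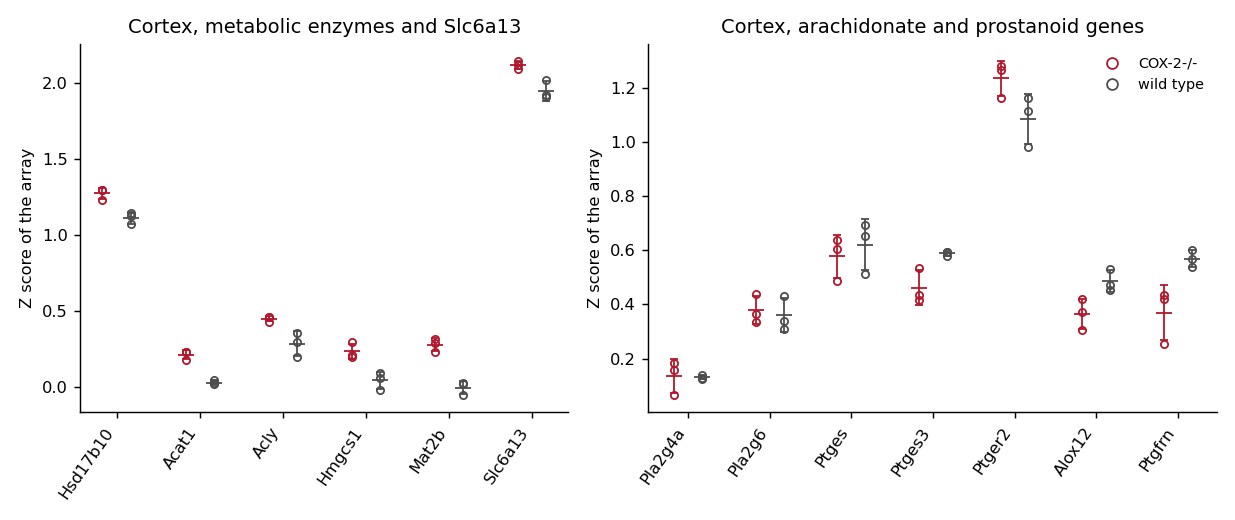
Z score of each cortex array (circles) with mean and SD (bars, n = 3), COX-2-/- in red to the left of wild type in grey, for acetyl-CoA and methionine enzymes with the GABA transporter Slc6a13 (left) and for genes of arachidonate release and prostanoid action (right). The 6 genes on the left lie apart between the groups and Pla2g4a, Pla2g6 and Ptges on the right overlap.

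The pathway in which COX-2 acts was read in part. Of 54 genes of arachidonate release, prostanoid synthesis and prostanoid receptors 23 were measured and 15 tested by 1 probe each, and 1 met the rule (6.67% of the probes, against 4.32% of all tested). That gene, Ptgfrn, encodes a membrane protein that binds the prostaglandin F2 alpha receptor and lowers its binding of ligand. Its Z was 0.436, 0.252 and 0.419 in COX-2-/- and 0.601, 0.539 and 0.569 in wild-type cortex, without overlap, with a difference of -0.201 ± 0.0591, a z ratio of -1.98 and a limma adjusted p of 0.180. Its stretch of 50 rows held 8 probes that met the rule, all lower, and its place-corrected z ratio of -1.51 no longer passed the Z test.

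Ptger2, the EP2 receptor of prostaglandin E2, stayed just inside the threshold with a z ratio of 1.48. It was at 1.16, 1.28 and 1.27 in COX-2-/- and 1.11, 1.16 and 0.983 in wild-type cortex, where the lowest COX-2-/- value and the highest wild-type value nearly met. Upstream, Pla2g4a, the cytosolic phospholipase A2 that frees arachidonate, was at 0.158, 0.184 and 0.0633 in COX-2-/- and 0.127, 0.126 and 0.140 in wild-type cortex. The wild-type arrays lay inside the COX-2-/- range and the difference was 0.00422 ± 0.0444 (limma SE), less than its error. The calcium-independent Pla2g6 had a z ratio of 0.195. Among synthases Ptges, the inducible prostaglandin E synthase, had -0.421, the cytosolic Ptges3 -1.25 and the prostacyclin synthase Ptgis 0.260. Alox12, which takes arachidonate to 12-hydroperoxide, had -1.19. The prostaglandin transporter Slco2a1 had -0.448, and Ptgr1, which reduces 15-keto prostaglandins, was read by 2 probes below the filter with z ratios of 1.95 and 1.40.

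Genes downstream of prostaglandin signalling were measured in 3 lists. Of 24 measured cAMP and CREB genes 13 were tested and Atf2, a CREB family factor, met the rule. Atf2 was at 1.12, 1.06 and 1.12 in COX-2-/- and 0.989, 0.90 and 0.796 in wild-type cortex, without overlap, with a z ratio of 2.04, or 0.970 with place corrected. Of 13 activity-regulated genes 6 were tested and Nab1 met the rule, lower. Of 24 NF-kB, JAK-STAT and cytokine genes 15 were tested and Tnfsf13b, the B cell activating factor, met it with a z ratio of 2.61. It was at 0.692, 0.521 and 0.597 in COX-2-/- and 0.566, 0.234 and 0.218 in wild-type cortex, so the groups overlapped, and place-corrected it had 1.14. In each of these lists 1 probe met the rule, 6.67% of 15, 16.7% of 6 and 5.56% of 18 tested probes, against 4.32% of all tested. A single probe is too few to read a share from. The median differences of these lists were -0.00974, 0.0148 and -0.0281 Z, against -0.00830 Z over all tested probes. None of the 14 tested corepressor and histone deacetylase genes and none of the 5 tested glutamate and synapse genes met the rule.

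Of 35 tested spliceosome and hnRNP genes 7 met the rule as higher and 0 as lower, 15.9% of 44 probes against 4.32% of all tested, with a median difference of 0.0351 Z against -0.00830 Z. Snrpb2, a U2 snRNP protein, had a z ratio of 2.24, the probe that the annotation assigns to Snrpe, of the Sm ring, 2.15, Lsm2 2.09, the splicing factor Srsf6 1.95, Hnrnpul1 1.68 and Hnrnpdl 1.56. Their place-corrected values were 1.2, 1.53, 0.562, 1.24, 1.77 and 0.182, so Snrpe and Hnrnpul1 still passed. The study's tables name the Snrpe probe as a ring finger gene, so its identity is in doubt and without it 6 genes remain. It was at 1.90, 2.01 and 1.92 in COX-2-/- and 1.84, 1.70 and 1.64 in wild-type cortex. Hsp90aa1, the inducible cytosolic Hsp90, and Lsm2 stood in adjacent rows (5814 and 5815).

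Of 33 tested chaperone genes 4 met the rule as higher and 1 as lower (9.26% of 54 probes, against 4.32% of all tested): Hspd1 above, Cct6a, a subunit of the cytosolic chaperonin, with a z ratio of 2.36, Hsp90aa1 with 2.35, Dnajb4 with 1.68, and, lower, Dnajc10, a disulfide reductase of the endoplasmic reticulum, with -1.90. Cct6a passed under all 3 corrections (place-corrected 2.23), and Dnajb4 (1.75) with place corrected but Dnajc10 (-1.88), by its Z test, not. Hsp90aa1 was at 1.30, 1.37 and 1.35 in COX-2-/- and 1.14, 1.12 and 1.05 in wild-type cortex, but its place-corrected z ratio was 0.846 and its 6 other probes had z ratios of -0.506 to 1.12.

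Of 28 tested proteasome genes 4 met the rule (11.4% of 35 probes, against 4.32% of all tested): Psmb1 (2.05) and the ATPase Psmc3 (1.68) as higher, Psma3 (-2.56) and the ATPase Psmc5 (-1.57), whose groups overlapped, as lower. With place corrected Psmb1 had 0.499, Psmc3 0.490 and Psmc5 -1.35, none of which passed, so that Psma3 (-2.09) alone was left. The other Psma3 probes had z ratios of 0.20 and 0.225. Of 76 tested ubiquitin genes 6 met the rule as higher and 0 as lower, 6.45% of 93 probes and so near the 4.32% of all tested, with a median difference of -0.000407 Z: Skp1, the histone H2B ligase Rnf20 (1.81), the deubiquitinases Usp25 (1.77) and Uchl1 (1.74), the conjugating enzyme Ube2s (1.74) and Rnf103 (1.53). With place corrected Ube2s (2.19) and Rnf103 (1.66) met the rule, and Skp1, Rnf20 (1.43), Usp25 (1.41) and Uchl1 (0.628) did not. Of 43 tested genes of oxidative phosphorylation 3 met the rule as higher, Ndufb10 of complex I (1.81), Uqcrb of complex III (1.86) and Atp5pb of the ATP synthase (1.62), and 0 as lower, 5.88% of 51 probes and so near the 4.32% of all tested, with a median difference of 0.0285 Z. With place corrected Uqcrb (1.68) and Atp5pb (1.60) passed and Ndufb10 (1.42) did not, and over 21 rows none did (1.40, 1.18 and 0.436). Cytosolic ribosomal proteins had a like median of 0.0272 Z over 122 probes of 64 genes, 86 of them above 0, and 3 genes met the rule, 2.46% of the probes: Rpsa, Rpl23a (2.32, place-corrected 2.01) and Rpl15 (2.06, 0.919). None of 26 tested mitochondrial ribosomal proteins met it.

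**Figure D4:**
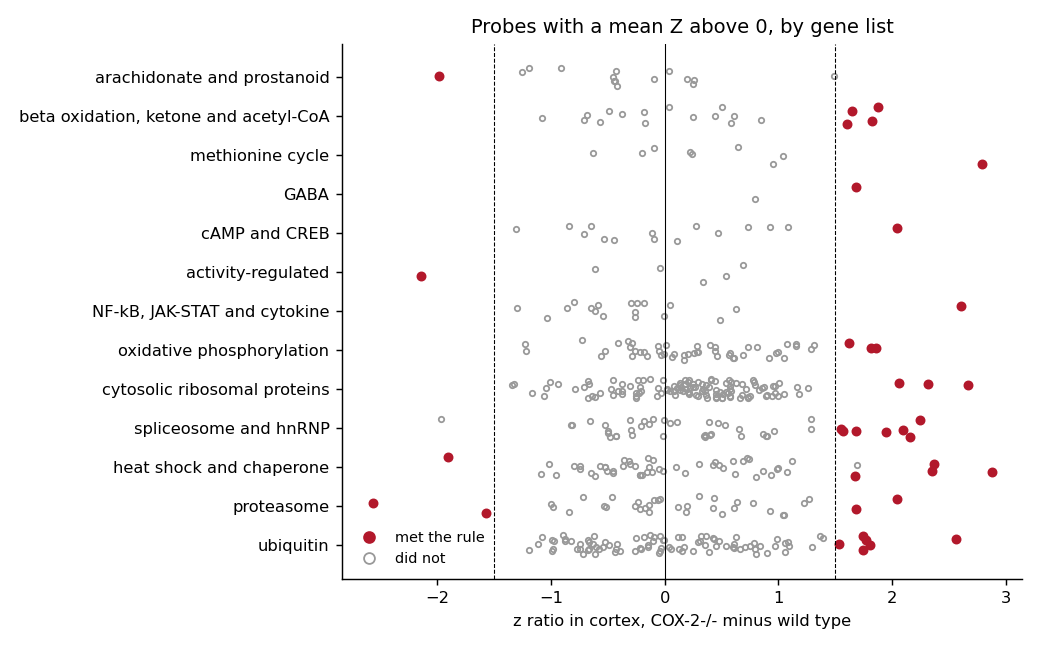
z ratio in cortex, COX-2-/- minus wild type, of each probe with a mean Z above 0 in 13 gene lists; filled red points met the rule, dashed lines mark z ratios of -1.5 and 1.5. Acetyl-CoA, spliceosome and ubiquitin genes that met the rule lie on the right, and proteasome and chaperone genes on both sides.

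Single genes of other groups met the rule as higher: Nsf, the ATPase that takes SNARE complexes apart (2.21, place-corrected 1.88), the Golgi SNARE Bet1l (2.08, 1.21), the trafficking GTPase Rab14 (1.71, 1.77), the translation factors Eif2a (1.91, 0.308) and Eif3b (1.62, 1.49), the glycolytic aldolase Aldoa (1.65, 1.42) and the actin filament cap Tmod3 (1.76, 1.90). Nfe2l2, the master factor of the antioxidant response, was lower (-1.71, -0.982). Its Z was 0.169, 0.00170 and 0.0906 in COX-2-/- and 0.337, 0.152 and 0.293 in wild-type cortex, where the groups overlapped, and its second probe had a z ratio of 1.09.

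Markers of cell types were few on this membrane. None of 10 excitatory neuron markers was measured, so the cortical label was not checked by them. Of 12 pan-neuronal markers 4 were measured and tested, Uchl1, Snap25, Nefl and Tubb3; their mean Z was 0.481 to 0.518 on COX-2-/- arrays and 0.395 to 0.461 on wild-type arrays, and Uchl1 met the rule. Snap25 had a z ratio of 1.54 but its Z test did not pass. Astrocyte markers (4 of 12 measured) had a mean Z of 0.406 to 0.419 on COX-2-/- and 0.378 to 0.413 on wild-type arrays, and microglial markers (5 of 14) one of -0.238 to -0.191 on COX-2-/- and -0.219 to -0.174 on wild-type arrays. Endothelial markers (3 of 10) had 0.162 to 0.445 on COX-2-/- and 0.295 to 0.353 on wild-type arrays. Meningeal markers (5 of 8, Slc6a13 among them) had 0.407 to 0.435 on COX-2-/- and 0.372 to 0.399 on wild-type arrays, and the part of meninges in the Slc6a13 value was not tested. The choroid plexus gene Ttr had a z ratio of 1.02.

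Hippocampus of the same COX-2 line, read on 3 COX-2-/- and 3 wild-type arrays that share none with cortex, gave 329 probes that met the rule of 8040 tested (4.09%). Both regions shared 60 of these, 17.3% of the cortex probes and 18.2% of the hippocampus probes, and in all 60 the direction was opposite. Of the 60, 31 were higher in COX-2-/- cortex and lower in COX-2-/- hippocampus, and 29 the reverse. Among the 215 probes higher in cortex 181 (84.2%) had a difference below 0 in hippocampus, and among the 131 lower ones 122 (93.1%) had one above 0, against 66.4% of opposite signs over the 7833 probes tested in both regions. Over these probes the 2 differences correlated at r = -0.469 (Spearman's rho -0.458), a description across probes, which share arrays and place in the table. It was -0.207 with each array corrected for place in the block, and 26 probes then met the rule in both regions, again all in opposite directions. The labels do not say whether the 2 regions came from the same mice, and the limma fit below took the arrays as independent.

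The difference between regions was tested with limma on the 18 arrays of the line, as the COX-2-/- minus wild-type difference in cortex minus that in hippocampus. It passed an adjusted p of 0.05 for 282 of 8021 probes (3.52%), 140 higher and 142 lower, all with opposite signs in the 2 regions. Of the 346 cortex probes 147 (42.5%) were among them, and of the 60 shared ones 59. Both sets were picked by their differences on arrays that this fit also used. A high share among them follows from that choice and is no separate support, and the same holds for the adjusted p-values of shared genes below. With place corrected 16 probes passed, 5 of the 282 among them. The count depended on single arrays: it was 66 without cortex COX-2-/- replicate 3, 107 without cortex wild-type replicate 3, 72 without hippocampus wild-type replicate 2 and 709 without hippocampus COX-2-/- replicate 1. Of the 282, 52 passed with any 1 of the 12 compared arrays left out.

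Ctnnd1 stood for the first kind. In hippocampus it was at 0.655, 0.585 and 0.468 in COX-2-/- and 0.710, 0.812 and 0.805 in wild-type mice, so that the COX-2-/- arrays lay below the wild-type arrays where in cortex they lay above. The difference of differences was 0.525 ± 0.0819 (limma adjusted p 0.00719). Cdca8 was at -0.0158, -0.0720 and -0.205 in COX-2-/- and 0.144, 0.165 and 0.187 in wild-type hippocampus, against 0.238, 0.153 and 0.139 in COX-2-/- and 0.0595, -0.181 and -0.196 in wild-type cortex; its difference of differences was 0.545 ± 0.0874 (limma adjusted p 0.00719). Pcyt1a, which makes the CDP-choline that membrane lipid needs, followed with 0.489 ± 0.0745 (0.00719) and stood in the row before Cdca8. Rc3h1, the RNA-binding ligase roquin that destabilises cytokine mRNAs, had 0.451 ± 0.0823 (0.0130), and Atf2 0.392 ± 0.0785 (0.0158). In cortex the place-corrected z ratios of Pcyt1a and Rc3h1 were 0.797 and 1.03, against 2.30 and 2.54 before correction.

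Of the second kind, Psma3 was at 0.757, 0.782 and 0.659 in COX-2-/- and 0.580, 0.506 and 0.465 in wild-type hippocampus, higher there and lower in cortex. Its difference of differences was -0.475 ± 0.0769 (limma adjusted p 0.00719). Tef was at 0.412, 0.356 and 0.623 in COX-2-/- and 0.318, 0.293 and 0.235 in wild-type hippocampus, with -0.480 ± 0.0981 (0.0163). Praf2, a membrane protein of the endoplasmic reticulum, spread widely in COX-2-/- hippocampus. Its Z there was 0.680, 1.02 and 1.31, against 0.606, 0.632 and 0.487 in wild-type hippocampus, with -0.611 ± 0.145 (0.0300), and its cortex z ratio of -1.82 was -1.24 with place corrected. Acat1 differed little in hippocampus (z ratio -0.121), as did Slc6a13 (-0.110) and Hsd17b10 (-0.50), and for Mat2b the hippocampal z ratio was -1.23. For Immt and Ndufb10 both regions were above 0, with hippocampal z ratios of 3.22 and 3.10 whose Z tests did not pass. There 1 wild-type array stood far below the others: Immt was at 2.24, 2.23 and 2.18 in COX-2-/- and 1.22, 2.30 and 2.12 in wild-type hippocampus.

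**Figure D5:**
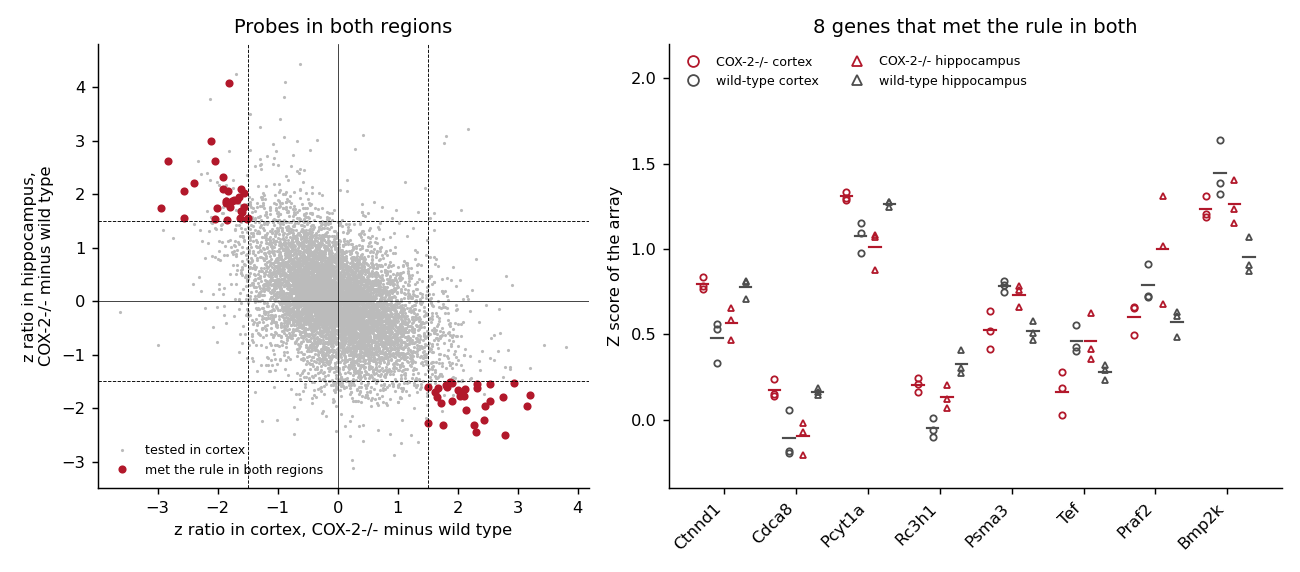
Left, z ratio of each probe tested in cortex (horizontal axis) against that in hippocampus (vertical axis), COX-2-/- minus wild type, with the 60 probes that met the rule in both regions in red, all in the upper left and lower right corners; dashed lines mark -1.5 and 1.5. Right, Z score of each array and group mean (short line) for 8 of these genes, COX-2-/- in red and wild type in grey, cortex as circles and hippocampus as triangles.

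Heterozygous cortex of the line, 3 arrays of COX-2+/- mice, is given for the genes above as a description. Mat2b was at 0.289, 0.316 and 0.234 in COX-2-/-, 0.230, -0.0137 and 0.175 in COX-2+/- and 0.0198, -0.0545 and 0.0249 in wild-type cortex, with the heterozygous mean between the others. Acat1 had mean Z scores of 0.215 ± 0.031 in COX-2-/-, 0.0451 ± 0.098 in COX-2+/- and 0.0304 ± 0.015 in wild-type cortex (SD, n = 3 each), the heterozygous value near wild type. Tef had 0.164 ± 0.13 in COX-2-/-, 0.453 ± 0.097 in COX-2+/- and 0.461 ± 0.083 in wild-type cortex, likewise near wild type, and Ppp4r2 -0.0433 ± 0.096 in COX-2-/-, -0.111 ± 0.044 in COX-2+/- and 0.193 ± 0.11 in wild-type cortex, near COX-2-/-. Crybg3 had 1.61 ± 0.15 in COX-2-/-, 1.51 ± 0.027 in COX-2+/- and 1.22 ± 0.14 in wild-type cortex, and Slc6a13 2.12 ± 0.028 in COX-2-/-, 2.16 ± 0.040 in COX-2+/- and 1.95 ± 0.064 in wild-type cortex, with the heterozygous mean of Slc6a13 above that of both other groups.

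Probes of the same gene gave little agreement. Across 1858 genes read by several probes the wild-type cortex levels of the first 2 probes correlated at r = 0.0668 and their COX-2-/- minus wild-type differences at 0.0418, a description across genes. Of the probes that met the rule 53 had another tested probe of the gene. In 27 of them the mean of the others had the same sign, and in 0 did another probe meet the rule. For Skp1 a second probe below the filter had a z ratio of 2.41, and for Ppil2 1.56, whereas Paxip1's others had -1.48 and -0.460.

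Genes near Ptgs2 on chromosome 1, where a targeted allele can carry DNA of the strain it was made in, were counted. Of 75 tested probes with 1 symbol within 20 Mb of Ptgs2 in the RefSeq annotation of GRCm38.p6, 3 (4.0%) met the rule, Rc3h1, the probe in doubt for Snrpe, and Tor1aip2, all higher, against 3.85% of 4521 probes with 1 symbol. On all of chromosome 1 it was 10 of 285 (3.51%), 8 higher and 2 lower.

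Because EP2 and EP4 act through cAMP, promoters were read for the cAMP response element TGACGTCA, on either strand. Windows ran from 250 bases before to 50 after an annotated RefSeq start of each gene (GRCm38.p6), and 4163 genes had several starts. The element was found in 2 of 107 promoters of higher genes (1.87%), 1 of 47 of lower genes (2.13%), 3.18% of 3146 promoters of tested genes and 1.88% of 27025 promoters in all. Its core TGACG, which the full element contains, was in 36.4% of the higher, 31.9% of the lower and 33.0% of the tested promoters. The NF-kB letters GGGACTTTC and the D box TTATGTAA, bound by Tef, were in none of the promoters of genes that met the rule, and in 0.413% and 0.572% of tested promoters. The Nfe2l2 letters TGACNNNGC were in 18.7% of the higher, 23.4% of the lower and 14.8% of the tested promoters. The 3 promoters with the full element among the genes that met the rule are shown as windows of 100 bases, with the element in capitals and the rest in lower case, 5′ to 3′ on the gene's strand. They belong to Ppp2ca, a catalytic subunit of protein phosphatase 2A (higher, z ratio 1.55; chr11:52098752-52098851, plus strand), Skp1 (higher; chr11:52231918-52232017, plus strand) and Pop4 (lower; chr7:38271333-38271432, minus strand).
Ppp2ca: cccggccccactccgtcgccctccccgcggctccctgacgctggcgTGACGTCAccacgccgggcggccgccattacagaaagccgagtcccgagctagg
Skp1: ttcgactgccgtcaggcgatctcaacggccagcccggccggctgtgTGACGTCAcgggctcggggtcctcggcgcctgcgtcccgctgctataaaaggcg
Pop4: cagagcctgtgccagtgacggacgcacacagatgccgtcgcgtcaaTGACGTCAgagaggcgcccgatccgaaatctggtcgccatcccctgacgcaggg
The element starts 26, 31 and 38 bases before the transcript start used for the window in Ppp2ca, Skp1 and Pop4. For Skp1 and Pop4 that start is not the outermost of the gene. As annotated, Skp1 begins at chr11:52230522 and Pop4, on the minus strand, at chr7:38271393, so both elements lie within the gene's span. Each match is a description and says nothing of binding.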

How the data were processed

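RNA of 5 µg per sample was copied into 33P-labelled cDNA, hybridised to a custom nylon membrane of mouse cDNAs and read by phosphoimager. The deposited values are Z scores, which the authors made from natural log intensities by centring and scaling each array, and in which both parts of the table had mean 0 and SD 1. They are unitless, background and raw intensity were not used here, and a true change shared by most probes would not show. Probes took gene symbols from the platform annotation, updated through Entrez IDs (9663 with 1 symbol, 436 with several, 6797 with none).

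The rule was a z ratio beyond 1.5, a two-sided normal Z test under 0.05 and a mean Z of the 6 arrays above 0. limma 3.58.1 (R 4.3.3; lmFit, eBayes, Benjamini-Hochberg) was fitted to the 9 cortex arrays of the COX-2 line, and to its 18 arrays for the difference between regions. Cortex arrays of the COX-1 line were left out because 5 of 6 held identical values in its first part. The rule and the z ratios were computed in Python 3.11.15 (scipy 1.17.1, numpy 2.4.6, pandas 2.3.3). Both tests were run on simulated data with independent noise and no swing along the table. Recovery was checked there only for shifts larger than any cortex difference that met the rule. For limma, row order was corrected by subtracting from each array a running median of its deviations. For the rule, the running median was subtracted from the difference alone, and the Z test stayed that of the uncorrected values. The correction for place, in limma and in the rule, took from each array the median of its deviations at the same place in the 528-row block. Arrays with the same replicate number were not treated as pairs in the main fits.

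Named genes were those with 1 symbol that had the 12 highest or lowest z ratios without overlap, met the rule in a gene list (up to 6 a list), were discussed by the study, met the rule in hippocampus too (up to 15), or had the 5 smallest limma p-values. The arrays, gene lists and tests were chosen with earlier results of these data known. Genes outside that rule, given by value, were chosen after their values were seen.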

Additional observations from a re-analysis of the deposited data

Results flagged for a closer look

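The COX-2-/- minus wild-type difference was not the same in cortex and hippocampus for 282 probes by limma on 18 arrays (Benjamini-Hochberg adjusted p under 0.05). Among named genes it was more positive in cortex for Cdca8 (0.545 Z), Ctnnd1 (0.525 Z), Pcyt1a (0.489 Z), Rasa3 (0.479 Z), Bpnt2 (0.458 Z), Trabd (0.454 Z), Rc3h1 (0.451 Z), Itga9 (0.428 Z), Lama5 (0.418 Z), Atxn7l3b (0.404 Z) and Rpl23a (0.397 Z). It was more negative in cortex for Praf2 (-0.611 Z), Bmp2k (-0.527 Z), Tef (-0.480 Z) and Psma3 (-0.475 Z). These genes were named for their differences on the same arrays, so the limma test is no separate support for them. They met the rule in both regions, in opposite directions. Of the 60 probes that did so, 36 lay within 10 rows of another with the same directions, and 16 probes in all passed the limma test once each array was corrected for place in the 528-row block; the part of row order in these values was not tested further.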

How the results depend on the processing

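The 346 probes that met the rule became 931 with no filter on level, 187 at a mean Z above 0.5, 97 at a z ratio beyond 2, 203 with an adjusted Z test and 0 with the difference left undivided, and 237 to 354 with 1 array or 1 replicate number left out. Corrections for row order gave 232 (wide running median), and, chosen after seeing the data, 121 (21 rows) and 193 (place in the block). The share that was higher, 62.1%, was 67.2% after quantile normalization, 58.3% after median centring and 51.3% without replicate 2. Of 72 named z ratios, 57, 27 and 30 kept their call under these 3 corrections.

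limma called 0 cortex probes in the 9 arrays, 27 in all 15 cortex arrays, copied values included, and 5 in all 18 arrays of the line. The 282 probes that differed between regions were 101 at a mean Z above 0.5, 37 after the wide running median, 16 after the place correction, 69 in the 12 compared arrays alone, and 66 (without cortex COX-2-/- replicate 3) to 709 (without hippocampus COX-2-/- replicate 1) with 1 array left out. With the replicate number as a block they were 467. Deviations of COX-2-/- and wild-type arrays of the same number correlated at 0.0596, 0.20 and 0.0679 in cortex and 0.00556, 0.124 and 0.186 in hippocampus. Whether the numbers pair the arrays was not tested further. The 60 probes with opposite directions were 10 at a z ratio beyond 2, 166 (with 10 in the same direction) without a filter, 31, 9 and 26 under the corrections by wide running median, 21 rows and place, and 39 to 66 with 1 cortex array left out. No hippocampus array was left out for this count. The lowest count, 39, with 2 in the same direction, came without cortex COX-2-/- replicate 3 or wild-type replicate 3. The 72 named z ratios that met the rule kept their sign under each of the 21 settings run for them. Settings that change only the filter, the threshold, the divisor or the p-value cannot change a sign. The probes were also chosen by their differences on these same arrays. The causes were not tested. With 3 arrays a group and called differences under 0.4 Z, the number of arrays limits the precision.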
